A study of Bos taurus with 44 samples.

Results

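The CD antigens are proteins of the cell surface that were numbered as antibodies against blood cells defined them, and many of them tell the kinds of leukocyte apart. The set described here is every gene whose annotated symbol is CD, a number and at most 1 letter, without CD74, which gave 48 of the 8073 genes named on the array. Each gene was read from 1 of 13824 probes, and none of the 48 lacked a value, so all 48 were tested in each of 7 comparisons. They were read in 5 classes: 11 genes of T and NK cells, 5 of B cells, 12 of myeloid cells, 5 shared by several leukocyte types, and 15 that many other cells also make. CD300H stood in none of the lists and was read as broad. CD8A, CD8B and CD22 were not analysed here.

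The arrays held RNA of the uterine lining of cattle, each with 1 sample in Cy3 and another in Cy5, from the caruncles, where the placenta attaches, or from the intercaruncular tissue between them. The intercaruncular tissue of 5 animals labelled SCNT (cloned embryos, made by transfer of a somatic nucleus) and of 4 animals of artificial insemination (AI) was set against that of 5 CJ animals, whose labels hold the word cycle, on 10 arrays per group. In each area, 5 animals labelled IVF-ET (embryos fertilised in vitro and then transferred) met 5 AI animals on 10 arrays. SCNT and AI met directly only as caruncular pools, on 4 arrays with 2 pools per group. Different AI animals were used on the IVF-ET arrays and against CJ. The size of a pool, the day of tissue collection, breed and age are not stated in the sources used here.

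Leukocytes are a minority of the cells of the uterine lining, and macrophages, T cells and NK cells are its usual residents. Early in pregnancy the ruminant conceptus secretes interferon tau, which acts on the lining and on its leukocytes. Some CD antigens are nearly restricted to a lineage, such as the CD3 chains of T cells and the CD79 chains of B cells. Others, such as CD44, CD63 and CD81, are made by epithelium, stroma and vessels as well.

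Values are log2 ratios of the 2 dyes, so they give differences between animals and no absolute level, and whether a probe was above background is not known. The ratios were read as Cy5 over Cy3. That direction is likely rather than stated, since interferon-stimulated genes are then higher and OXTR lower in SCNT and AI than in CJ animals, and under the other reading every sign below turns. The SD of the ratios of an array was 0.221 to 0.620, and the number of animals limits the precision. A gene was called where the p of limma's moderated test was under 0.05 after Benjamini-Hochberg adjustment across every probe tested. Against CJ, 10.4% of all probes were called higher and 11.3% lower in SCNT animals, and 6.92% and 8.08% in AI animals. Counts of calls below are to be read beside these shares. A level of an animal is its fitted log2 value relative to the mean of the CJ animals. AI animal 3 stood apart: the mean level of 12 interferon-stimulated genes was -0.13 in it, against 2.35 to 3.07 in the other AI animals and 2.34 to 2.98 in SCNT animals. It is named on 4 of the 10 AI arrays, so it weighs more than the other AI animals in a fitted AI difference.

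Against CJ, none of the 11 antigens of T and NK cells or the 5 of B cells passed the test in SCNT or AI animals, while 2 of the 5 antigens shared by leukocytes did in each, and 6 of the 15 broad ones did in SCNT and 5 in AI animals. The classes were not tested against each other, and without AI animal 3 CD3D of the T/NK class passed in AI animals, as did 20.4% of all probes. In SCNT animals 10 of the 48 genes were called, 3 higher and 7 lower, which is 20.8% beside 21.7% of all probes. In AI animals 7 were called, 4 higher and 3 lower, which is 14.6% beside 15% of all probes. That count was 2 when CJ animal 2 was left out, 3 for AI animal 2 and 4 for CJ animal 5. Shares this close to those of all probes are no result about the antigens as a set. The median difference of the 48 was 0.03 in SCNT and 0.03 in AI animals, beside 0.01 over all probes in each. Both comparisons share the CJ animals, so their agreement is not independent. In whole tissue, fewer cells of a type and less RNA per cell cannot be told apart.

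**Figure D1:**
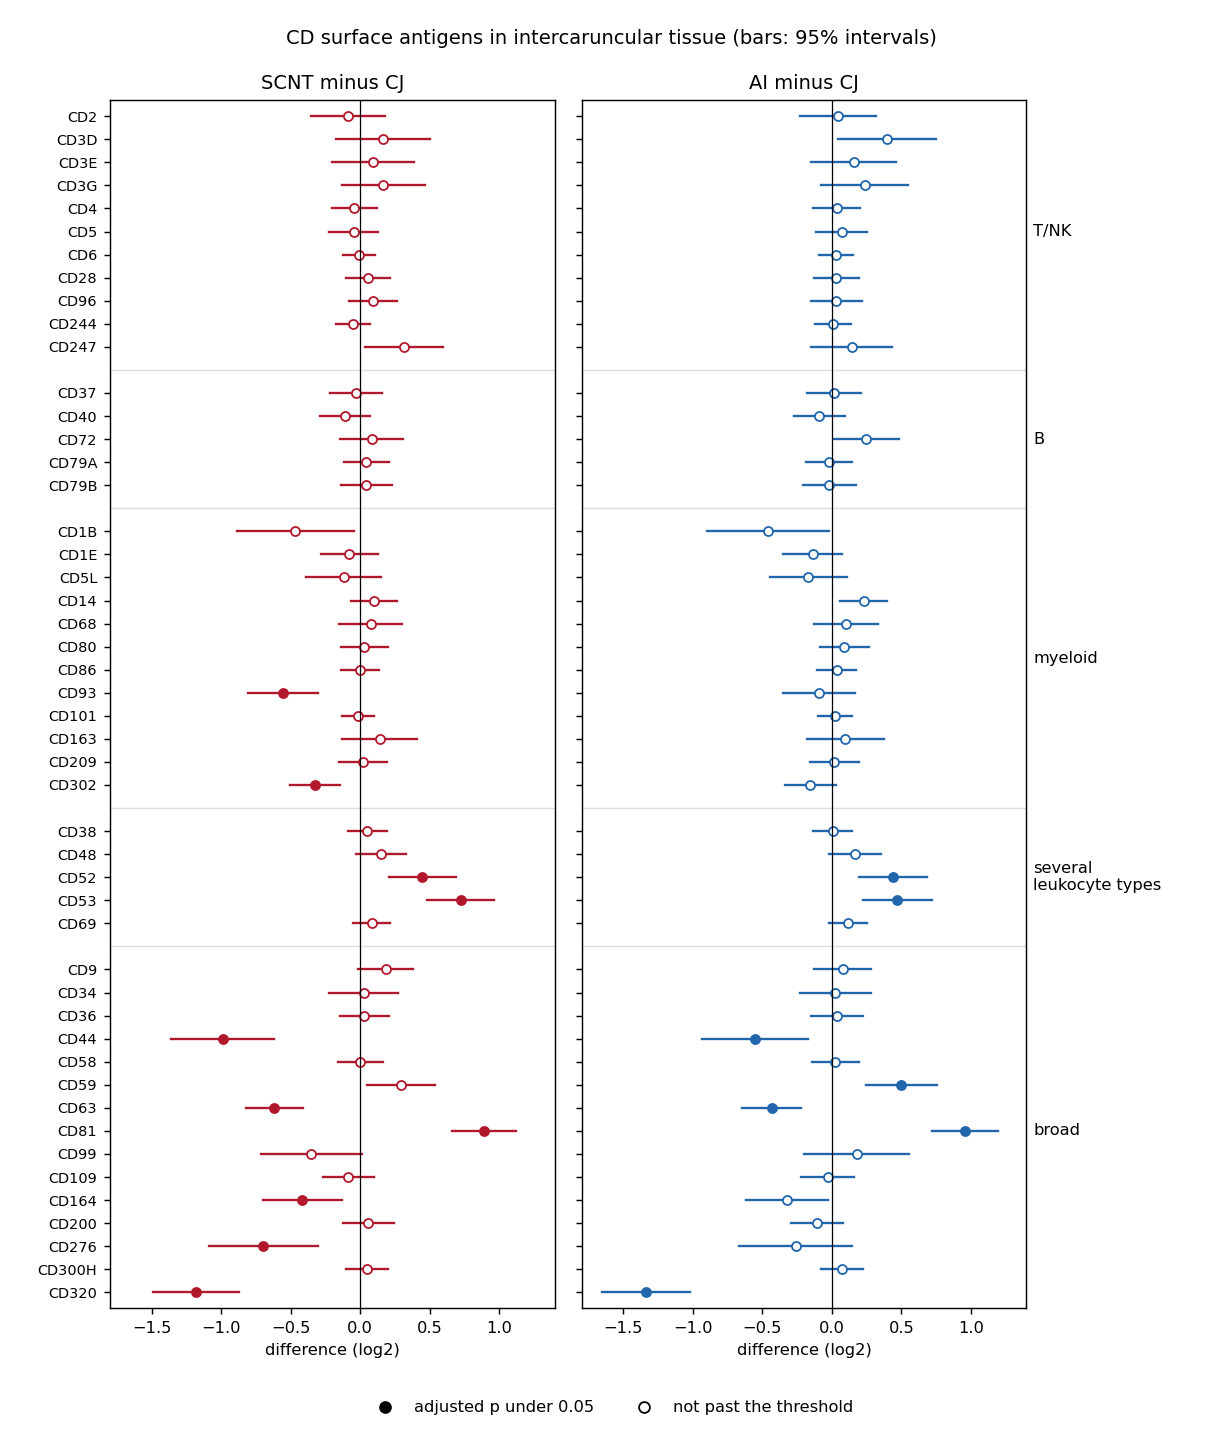
Differences from CJ (log2) of all 48 CD antigens in intercaruncular tissue of SCNT animals (left, 10 arrays) and AI animals (right, 10 arrays), grouped by class. Points are limma differences, bars their 95% intervals, and filled points have an adjusted p under 0.05. The filled points lie among the myeloid, shared and broad antigens, with CD81 highest and CD320 lowest in both panels.

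Of the T and NK cell antigens, 0 of 11 were called by limma in SCNT and 0 of 11 in AI animals, and 1 gene in each had an unadjusted p under 0.05. Their median differences were 0.06 and 0.05. The invariant chains that carry the signal of the T cell receptor are CD3D, CD3E, CD3G and CD247, and their genes differed from CJ by 0.17, 0.09, 0.17 and 0.32 in SCNT animals and by 0.40, 0.16, 0.24 and 0.14 in AI animals. All 8 differences were above 0, and none passed the test. Over the whole class of 11, 5 genes were below 0 in SCNT and 0 in AI animals, and both comparisons share the CJ animals.

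CD247, the zeta chain of the T cell receptor complex, had levels of 0.74, 0.23, 0.22, 0.06 and 0.33 in SCNT animals, against -0.12, 0.15, 0.06, 0.01 and -0.10 in CJ animals. The lowest SCNT animal lay within the CJ range. The difference of 0.32 had a 95% interval of 0.04 to 0.59 and an adjusted p of 0.103. CD3D had levels of 0.39, -0.24, 0.14 and 1.42 in AI animals, against -0.13, -0.25, 0.06, 0.31 and 0.02 in CJ animals. AI animal 4 was the highest, and AI animals 2 and 3 lay within the CJ range. The AI difference of 0.40 had an interval of 0.05 to 0.75 and an adjusted p of 0.134. Without AI animal 3 it was 0.60 ± 0.18 (SE), with an adjusted p of 0.0215. In that fit 20.4% of all probes were called, and the AI animals left are those with levels of 0.39, -0.24 and 1.42.

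On the cattle chromosome, CD3E, CD3D and CD3G are direct neighbours (gene order of ARS-UCD2.0), and AI animal 4 was at 0.13 in CD3E, 1.42 in CD3D and 0.70 in CD3G. CD5 and CD6, scavenger receptor family members that tune signals of the T cell receptor, are also direct neighbours. Their SCNT differences were -0.05 and -0.01, and their AI differences 0.07 and 0.03. CD4, the coreceptor of helper T cells, differed by -0.04 (95% interval -0.21 to 0.12) in SCNT and 0.04 (-0.13 to 0.21) in AI animals. CD96, a receptor of T and NK cells, was at 0.09 and 0.03. For 9 of the 11 genes the whole interval lay within 0.5 on the log2 scale in SCNT animals, and for 9 of 11 in AI animals.

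Several antigens are receptor and ligand of each other, and none of these pairs was called. CD2, an adhesion receptor of T and NK cells, differed from CJ by -0.09 in SCNT and 0.05 in AI animals, and its ligand CD58 by 0.00 and 0.03. CD28, the costimulatory receptor of T cells, differed by 0.06 and 0.03. Its ligands on antigen-presenting cells differed by 0.03 and 0.09 for CD80 and by 0.00 and 0.03 for CD86. CD244, a receptor of NK cells, differed by -0.05 and 0.01, and its ligand CD48 by 0.15 and 0.16. The widest interval among these values was that of CD2 in AI animals, -0.23 to 0.32.

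T and NK cell markers without a CD symbol were called higher for 2 of 15 in SCNT and 1 of 15 in AI animals. Over all probes 10.4% and 6.92% were called higher, so these counts are no result about the list. Of 15 measured, CCL5 (0.29 ± 0.09, adjusted p = 0.0244) and GNLY (0.42 ± 0.14, adjusted p = 0.0392) rose in SCNT animals and LAT (0.54 ± 0.16, adjusted p = 0.0258) in AI animals (limma). CCL5 is a chemokine, GNLY a granule protein of cytotoxic cells and LAT an adaptor below the T cell receptor. PTPRC, the CD45 phosphatase that all leukocytes carry, was at 0.03 in SCNT and 0.08 in AI animals, without a call.

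The B cell antigens gave 0 calls of 5 in SCNT and 0 of 5 in AI animals (limma), with 0 and 1 gene at an unadjusted p under 0.05. All 5 intervals lay within 0.5 in each comparison. CD79A and CD79B, the signalling chains of the B cell receptor, differed by 0.04 and 0.04 in SCNT and by -0.02 and -0.02 in AI animals. CD37, a tetraspanin of B cells, was at -0.03 and 0.01, and CD40, the receptor of CD40 ligand, at -0.11 and -0.09. CD72, which dampens B cell signals, was at 0.08 in SCNT and at 0.25 in AI animals (interval 0.01 to 0.48, adjusted p = 0.170). Of 5 B and plasma cell markers without a CD symbol, none was called in SCNT or AI animals.

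The myeloid antigens gave 2 calls of 12 in SCNT animals, both lower, and 0 of 12 in AI animals, where 2 had an unadjusted p under 0.05. The SCNT share of 16.7% stood beside 21.7% of all probes, so it is no result about the class. CD93, a receptor made by myeloid cells and by endothelium, had levels of -0.43, -0.78, -0.77, -0.60 and -0.20 in SCNT animals, against 0.14, -0.33, -0.16, 0.06 and 0.29 in CJ animals. All 5 SCNT animals were below 0, and the highest overlapped the CJ range. CD93 fell by 0.56 ± 0.12 (adjusted p = 0.00168) and was lower on 9 of 10 arrays. In AI animals its levels were -0.45, -0.22, 0.10 and 0.07, and its difference of -0.09 (interval -0.35 to 0.17) was not called, nor was that of -0.20 without AI animal 3.

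CD302, a lectin receptor of macrophages and dendritic cells, had levels of -0.30, -0.33, -0.10, -0.27 and -0.62 in SCNT animals, against -0.10, -0.12, 0.09, -0.02 and 0.15 in CJ animals. The groups overlapped only through SCNT animal 3. CD302 fell by 0.33 ± 0.09 in SCNT animals (adjusted p = 0.00783), and without SCNT animal 5 the fall was 0.24 with an adjusted p of 0.0673. In AI animals it was at -0.16 (interval -0.34 to 0.03), and at -0.03 without AI animal 3.

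The defining macrophage antigens were near CJ. CD68, a lysosomal glycoprotein of macrophages, differed by 0.08 in SCNT and 0.10 in AI animals. Its AI levels were -0.21, -0.28, 0.50 and 0.14, and without AI animal 3 the AI difference was -0.09. CD163, the scavenger receptor for haemoglobin bound to haptoglobin, differed by 0.14 and 0.10. CD14, the coreceptor for bacterial lipopolysaccharide, was at 0.10 in SCNT and 0.23 in AI animals (interval 0.06 to 0.40, adjusted p = 0.0660), and at 0.13 in AI animals without animal 3 (adjusted p = 0.406). A probe of CD14 not chosen by the rule gave -0.17 in SCNT and 0.05 in AI animals. CD1B, which presents lipids to T cells, was at -0.47 in SCNT (interval -0.89 to -0.04, adjusted p = 0.113) and at -0.46 in AI animals (interval -0.89 to -0.02, adjusted p = 0.171). Its CJ animals were spread widely, and CJ animal 4 was at 1.02. CD1E, a CD1 protein with 2 genes between its gene and CD1B, was at -0.08 and -0.14.

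The remaining myeloid antigens were within 0.2 of CJ. CD5L, a protein secreted by macrophages, was at -0.12 in SCNT and -0.17 in AI animals, CD101, an immunoglobulin family receptor of myeloid and T cells, at -0.02 and 0.02, and CD209, a lectin of dendritic cells and macrophages, at 0.02 and 0.02. Among 14 myeloid markers without a CD symbol, 4 rose and 1 fell in SCNT animals, and 5 rose and 1 fell in AI animals. Over all probes, 10.4% rose and 11.3% fell in SCNT animals, and 6.92% rose and 8.08% fell in AI animals. The complement chains C1QA, C1QB and C1QC rose by 0.98, 1.44 and 1.20 in SCNT and by 1.02, 0.98 and 1.19 in AI animals, and the protease CTSS by 0.98 and 0.91. LGALS3, a galectin of macrophages and epithelium, fell by 0.80 and 0.59. ITGAM, the CD11b integrin of myeloid cells, was at -0.01 and 0.02 and was not called.

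Of the 5 antigens shared by several leukocyte types, CD53 and CD52 rose in SCNT and in AI animals. CD53, a tetraspanin of leukocytes, had levels of 0.45, 0.72, 1.15, 0.57 and 0.73 in SCNT animals and of 0.63, 0.92, -0.02 and 0.70 in AI animals, against 0.07, 0.24, -0.13, -0.01 and -0.17 in CJ animals. All SCNT animals lay above all CJ animals, and of the AI animals only animal 3 did not. CD53 rose by 0.72 ± 0.12 in SCNT (adjusted p = 0.000102, higher on 10 of 10 arrays) and by 0.47 ± 0.12 in AI animals (adjusted p = 0.00916, 8 of 10 arrays). Leaving out AI animal 2 (0.36), or CJ animal 2 (0.46) or 5 (0.40), ended the AI call, and the difference was 0.68 without AI animal 3.

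CD52, a short glycoprotein anchored to the membrane by a lipid, had levels of 0.61, 0.74, 0.36, 0.49 and 0.04 in SCNT animals and of 0.60, 0.61, 0.14 and 0.59 in AI animals, against 0.13, -0.17, 0.28, -0.08 and -0.16 in CJ animals. SCNT animal 5 and AI animal 3 lay within the CJ range and the rest above it. CD52 rose by 0.45 ± 0.12 in SCNT animals (adjusted p = 0.00687, higher on 10 of 10 arrays) and by 0.44 ± 0.12 in AI animals (adjusted p = 0.0135, 8 of 10 arrays). With 1 animal left out the AI call was lost in 5 cases: 0.40, 0.36 and 0.40 when it was AI animal 1, 2 or 4, and 0.36 and 0.38 when it was CJ animal 2 or 5. The difference was 0.65 without AI animal 3.

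The other antigens of this class were not called. CD48, a ligand of CD244, was at 0.15 in SCNT and 0.16 in AI animals, and at 0.28 in AI animals without animal 3 (adjusted p = 0.0581). CD69, an early marker of activated lymphocytes, was at 0.08 and 0.12, and CD38, an enzyme that consumes NAD, at 0.05 and 0.01. Of 10 leukocyte markers without a CD symbol, ARHGDIB, CXCR4 and PTPN6 rose by 2.10, 1.32 and 0.43 in SCNT and by 1.82, 1.12 and 0.37 in AI animals. RAC2 rose in AI animals (0.32) and CORO1A fell in SCNT animals (-0.29). The integrin chain ITGB2 was at -0.08 and -0.02, LCP1 at 0.01 and 0.03, and ITGAL at -0.18 and -0.14, all without a call.

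**Figure D2:**
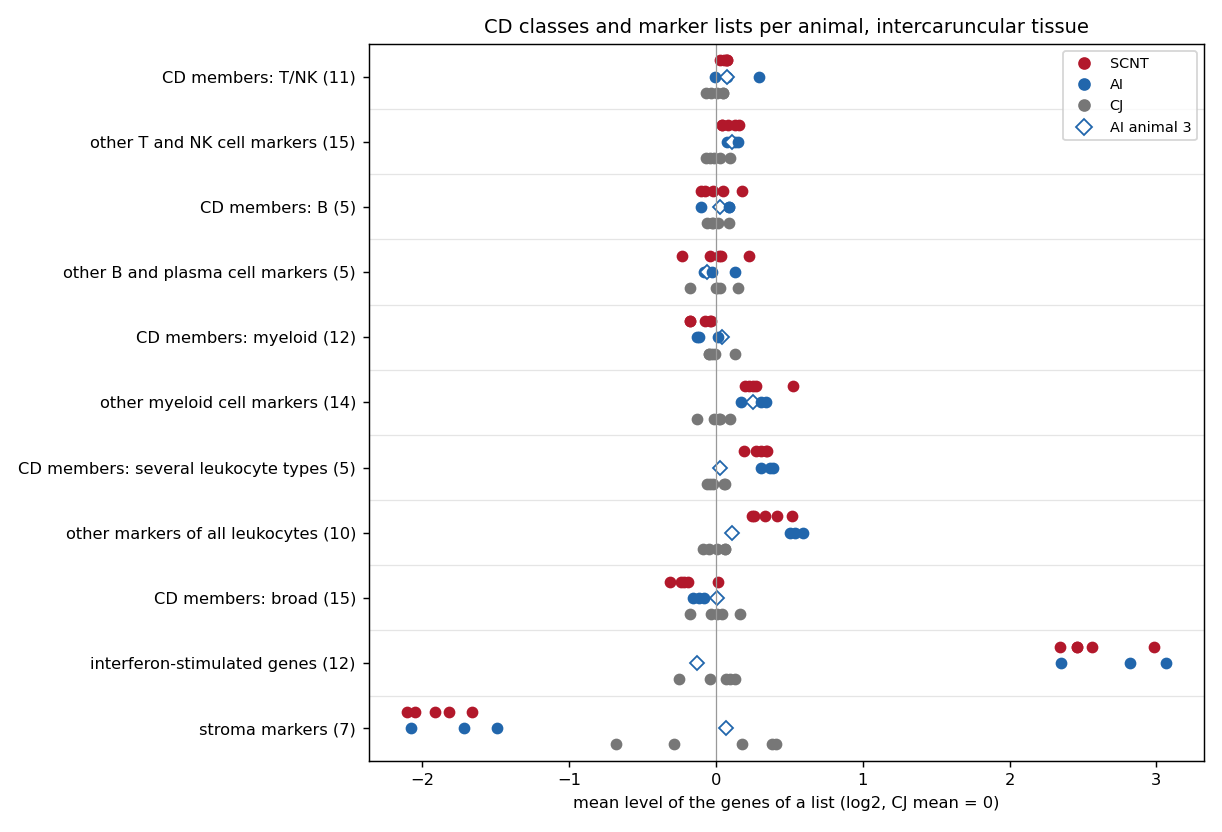
Mean level (log2, CJ mean = 0) of each CD class and of marker lists per animal in intercaruncular tissue, with the number of genes in brackets, for SCNT (5 animals, top of each band), AI (4) and CJ (5, bottom). AI animal 3, the open diamond, sits with the CJ animals in the antigens of several leukocyte types (0.03), the interferon-stimulated genes (-0.13) and the stroma markers (0.07).

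The mean level per animal put the classes side by side. The T/NK class ran from 0.03 to 0.08 in SCNT animals and from -0.01 to 0.29 in AI animals, against -0.07 to 0.05 in CJ animals. The class of several leukocyte types ran from 0.19 to 0.35 in SCNT animals, and was 0.37, 0.39, 0.03 and 0.31 in AI animals, against -0.06 to 0.06 in CJ animals. AI animal 3 was the only animal of SCNT or AI within the CJ range of that class. The 5 genes of the class include CD53 and CD52, so its mean partly restates those 2 calls. CD38, CD48 and CD69 were not called. The myeloid class ran from -0.18 to -0.03 in SCNT and from -0.13 to 0.04 in AI animals, against -0.05 to 0.13 in CJ animals. Non-CD myeloid markers in the same animals ran from 0.20 to 0.52 in SCNT and from 0.17 to 0.34 in AI animals, against -0.13 to 0.09 in CJ animals. Their list holds 14 genes, and the median of their differences from CJ was 0.06 in SCNT and 0.04 in AI animals.

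Of the 15 broad antigens, 6 were called in SCNT animals (1 higher, 5 lower) and 5 in AI animals (2 higher, 3 lower). These shares were 40% and 33.3%, beside 21.7% and 15% of all probes, and the gap was not tested. The tetraspanins are 4-pass membrane proteins that gather partners into membrane patches. Of the 3 broad ones, CD81 rose, CD63 fell and CD9 was not called. CD81 had levels of 0.89, 1.44, 1.05, 0.67 and 0.40 in SCNT animals and of 1.12, 1.22, 0.91 and 0.63 in AI animals, against 0.06, 0.16, -0.01, -0.13 and -0.08 in CJ animals. Every SCNT and AI animal lay above every CJ animal, AI animal 3 included. CD81 rose by 0.89 ± 0.11 (1.85-fold, adjusted p = 7.52e-06) in SCNT and by 0.96 ± 0.12 (1.94-fold, adjusted p = 1.07e-05) in AI animals, on 10 of 10 arrays each.

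CD63, a tetraspanin of late endosomes and secretory granules, had levels of -0.77, -0.49, -0.33, -0.49 and -1.01 in SCNT animals and of -0.52, -0.55, -0.40 and -0.22 in AI animals, against 0.32, 0.13, -0.28, 0.02 and -0.19 in CJ animals. SCNT animals lay below all CJ animals, and AI animal 4 lay within the CJ range. CD63 fell by 0.62 ± 0.10 in SCNT (adjusted p = 9.83e-05) and by 0.43 ± 0.10 in AI animals (adjusted p = 0.00541), and was higher on 0 of 10 arrays of either group. The AI call was lost without CJ animal 2 (-0.34). CD9, a tetraspanin also made by platelets and many epithelia, was at 0.18 in SCNT (interval -0.01 to 0.38) and 0.08 in AI animals, without a call. Of 10 tetraspanins without a CD symbol, TSPAN15 rose and TSPAN3, TSPAN6 and TSPAN31 fell in SCNT animals (0.42, -0.40, -0.86 and -0.30), and TSPAN15 rose (0.36) and TSPAN6 fell (-0.50) in AI animals.

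CD320, the receptor that takes up cobalamin bound to transcobalamin, was the lowest of the 48 in SCNT and in AI animals. Its levels were -0.95, -1.27, -0.97, -1.28 and -1.45 in SCNT animals and -1.18, -1.63, -1.25 and -1.32 in AI animals, against 0.36, -0.20, -0.50, -0.08 and 0.42 in CJ animals. Neither group overlapped CJ, and AI animal 3 lay among the other AI animals. CD320 fell by 1.18 ± 0.15 in SCNT (2.27-fold, adjusted p = 7.45e-06) and by 1.34 ± 0.15 in AI animals (2.53-fold, adjusted p = 6.54e-06), and was higher on 0 of 10 arrays of either group.

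CD44, the main receptor for hyaluronan, had levels of -1.07, -0.87, -1.13, -0.99 and -0.90 in SCNT animals and of -0.79, -1.33, -0.21 and -0.07 in AI animals, against 0.49, -0.27, -0.48, 0.13 and 0.12 in CJ animals. The SCNT animals were close together and below every CJ animal, while AI animals 3 and 4 lay within the CJ range. CD44 fell by 0.99 ± 0.18 in SCNT (1.99-fold, adjusted p = 0.000314) and by 0.55 ± 0.18 in AI animals (adjusted p = 0.0448). The AI call was lost without any of AI animals 1, 2 and 4, CJ animals 1, 2, 4 and 5, or SCNT animals 1, 4 and 5, with differences of -0.63 to -0.36. Without AI animal 3 it was -0.85 (adjusted p = 0.0043).

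CD276, an immune checkpoint ligand of the B7 family, had levels of -0.45, -0.49, -0.51, -1.29 and -0.74 in SCNT animals and of -0.81, -0.88, 0.60 and -0.51 in AI animals, against -0.01, -0.05, -0.12, 0.16 and 0.02 in CJ animals. All SCNT animals lay below all CJ animals, and AI animal 3 lay above them. CD276 fell by 0.70 ± 0.19 in SCNT animals (adjusted p = 0.00951), a call lost without SCNT animal 4 (-0.56), CJ animal 1 (-0.58) or CJ animal 5 (-0.61). In AI animals it was at -0.26 (interval -0.67 to 0.14), and without AI animal 3 at -0.74 ± 0.15 with an adjusted p of 0.00144.

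CD59, which blocks the membrane attack complex of complement, had levels of 0.56, -0.03, 0.52, 0.09 and 0.33 in SCNT animals and of 0.49, 1.06, 0.22 and 0.40 in AI animals, against 0.06, 0.02, 0.16, -0.34 and 0.10 in CJ animals. The AI animals lay above all CJ animals, and SCNT animals 2 and 4 did not. CD59 rose by 0.50 ± 0.12 in AI animals (adjusted p = 0.00704, higher on 10 of 10 arrays), a call lost without AI animal 2 (0.35) or CJ animal 2 (0.44). In SCNT animals it was at 0.29 (interval 0.05 to 0.54, adjusted p = 0.0838). Of 5 complement regulators and receptors without a CD symbol, SERPING1, the inhibitor of the C1 proteases, rose by 1.99 in SCNT and 1.10 in AI animals, and CLU rose in SCNT animals (0.46).

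CD164, a sialomucin of the cell surface and endosomes, had levels of -0.39, -1.05, 0.13, -0.40 and -0.38 in SCNT animals, against 0.08, -0.32, -0.02, 0.20 and 0.06 in CJ animals. SCNT animal 3 lay within the CJ range. CD164 fell by 0.42 ± 0.14 (adjusted p = 0.0314), and the call was lost without any of SCNT animals 1, 2, 4 and 5 or CJ animals 1, 3, 4 and 5, with differences of -0.42 to -0.28. In AI animals it was at -0.32 (interval -0.62 to -0.03, adjusted p = 0.148).

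The other broad antigens were not called against CJ. CD99, an adhesion protein of leukocytes and endothelium, was at -0.35 in SCNT (interval -0.72 to 0.01, adjusted p = 0.174) and 0.18 in AI animals, with AI animal 3 at 0.82 and the other AI animals at -0.44 to 0.04. Without AI animal 3 the AI value was -0.26, and the SCNT value was again -0.35, with an SE of 0.11 and an adjusted p of 0.0250. CD34, of endothelium and blood progenitors, was at 0.02 and 0.02, and CD36, a receptor for fatty acids and modified lipoproteins, at 0.03 and 0.04. CD200, a ligand that restrains myeloid cells, was at 0.06 and -0.11, CD109, a coreceptor of transforming growth factor beta, at -0.09 and -0.03, and CD300H, of the CD300 receptor family, at 0.05 and 0.07.

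**Figure D3:**
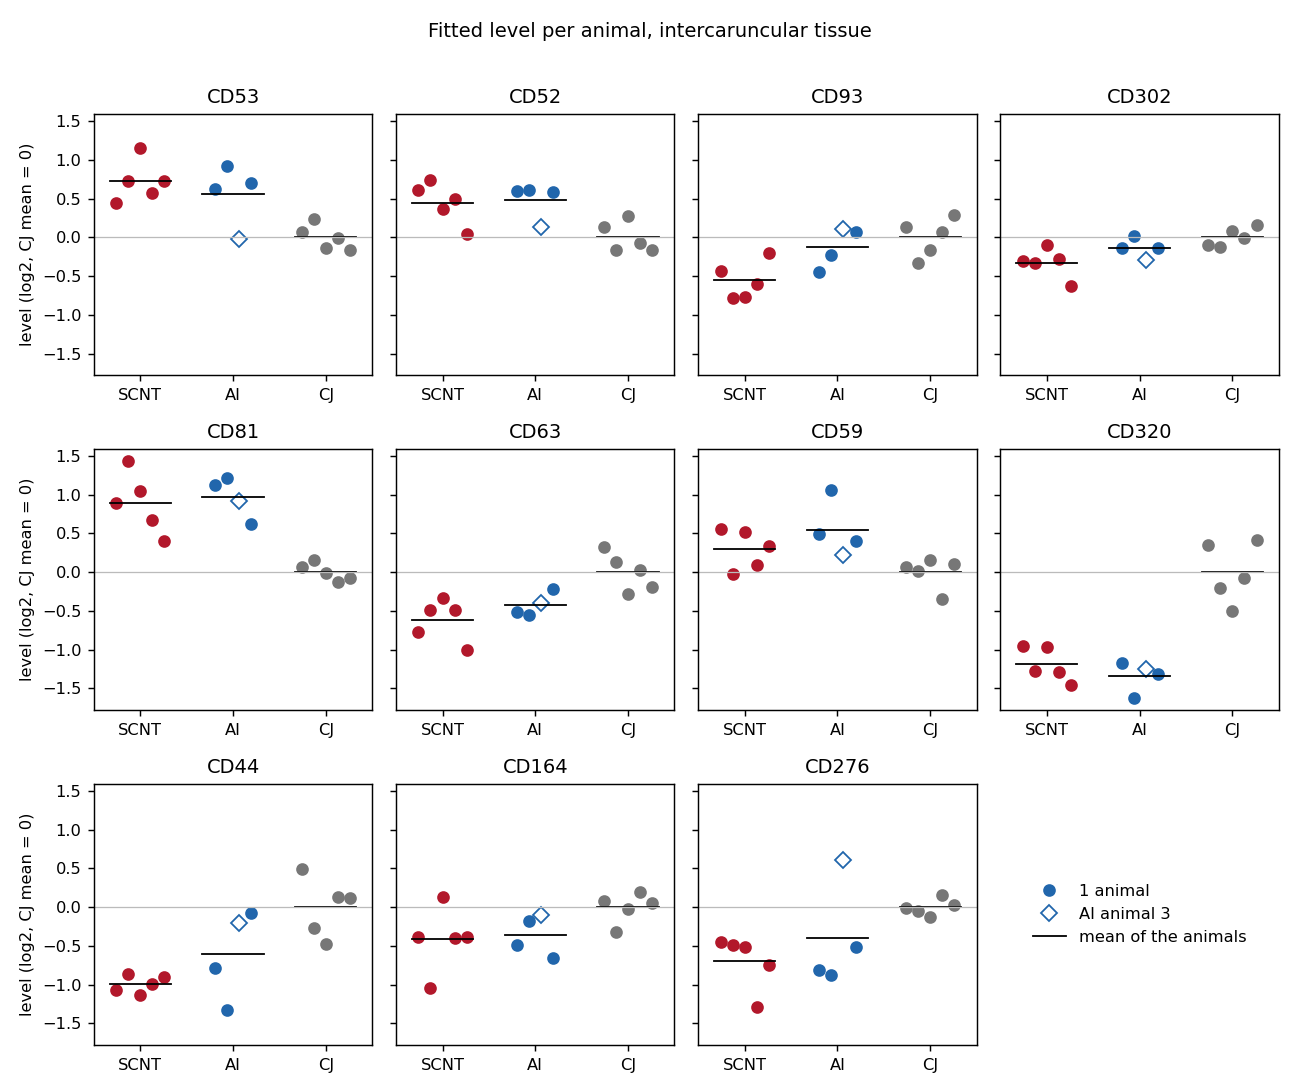
Fitted level (log2, CJ mean = 0) per animal of the 11 CD antigens called against CJ, in SCNT (5 animals), AI (4) and CJ (5), with lines at the mean of the animals, which counts each animal once. CD81 and CD320 have no overlap of SCNT or AI animals with CJ animals, while AI animal 3, the open diamond, lies with the CJ animals for CD53 (-0.02) and above them for CD276 (0.60).

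Levels that did not overlap between all animals of 2 groups were found for 6 of the 48 genes between SCNT and CJ, which is 12.5% beside 10.4% of all probes: CD53 and CD81 above, and CD276, CD320, CD44 and CD63 below. Between AI and CJ they were found for 3, which is 6.25% beside 7.06% of all probes: CD59 and CD81 above and CD320 below. Between SCNT and AI they were found for 0, beside 1.39% of all probes.

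Markers of other cells also differed from CJ. Over all probes, 10.4% were called higher and 11.3% lower in SCNT animals, and 6.92% and 8.08% in AI animals. All 7 stroma markers fell in SCNT animals (median -1.62) and 4 of 7 in AI animals (median -1.02), with mean levels of -2.11 to -1.66 in SCNT animals and of -1.72, -2.08, 0.07 and -1.49 in AI animals, against -0.68 to 0.41 in CJ animals. Of 6 smooth muscle markers, 5 fell in SCNT and 2 in AI animals. Of 9 epithelium markers, 4 rose and 1 fell in SCNT animals and 2 rose in AI animals. Interferon-stimulated genes passed the test for 12 of 12 in SCNT animals (median 2.09) and for 11 of 12 in AI animals (median 1.32), and their direction is the one by which the ratio was read, so it is no finding. Their part in the differences of CD44, CD63, CD81, CD276 and CD320 was not tested.

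Beside CD93, which endothelium also makes, 3 of 7 endothelium markers rose and 1 fell in SCNT animals, and 2 rose and 1 fell in AI animals. CLDN5 rose by 0.76 and 0.71, and PECAM1 fell by 0.76 and 0.54. Trophoblast markers, of the outer cells of the conceptus, rose for 4 of 8 in SCNT animals, with mean levels of 0.72, -0.00, 0.07, 1.27 and 0.20 in SCNT animals, and for 0 of 8 in AI animals, against -0.11 to 0.07 in CJ animals. Red blood cell and platelet markers, 2 of each, gave no call in SCNT or AI animals. PGR and OXTR, 2 of 4 endometrium markers, were called lower in SCNT and AI animals, and OXTR is one of the genes by which the direction of the ratio was read. The part of these cells in the CD antigens was not tested.

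SCNT and AI animals were compared in the intercaruncular area through CJ. The groups were different animals, so a part of cloning itself cannot be told apart from other differences between the groups. None of the 48 antigens was called by limma, beside 0.282% of all probes, and 2 had an unadjusted p under 0.05 (4.17%, beside 7.65% of all probes). CD93 was lower in SCNT than in AI animals by a difference of -0.46 ± 0.16 (interval -0.79 to -0.14, adjusted p = 0.367). CD99 was at -0.53 ± 0.23 (adjusted p = 0.580), and its probe not chosen by the rule at -0.37. Without AI animal 3, CD99 was at -0.09 and CD93 at -0.36. CD44, which the SCNT animals held low with little spread, was at -0.44 (interval -0.91 to 0.04), and CD276 at -0.44 (interval -0.95 to 0.07). Without AI animal 3, CD44 was at -0.14 and CD276 at 0.04.

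CD81, which rose against CJ in both groups, was at -0.07 between SCNT and AI animals, and CD320, which fell in both, was at 0.15, or 0.30 without AI animal 3. CD53 was at 0.25 (interval -0.06 to 0.57), or 0.05 without AI animal 3, CD38 at 0.05 and CD69 at -0.04. Of the T/NK class, CD3D was at -0.23, or -0.43 without AI animal 3, CD5 at -0.12 and CD247 at 0.17, of the B class CD72 at -0.16, CD79A at 0.07 and CD79B at 0.06, and of the myeloid class CD302 at -0.17 and CD14 at -0.13. For 38 of the 48 the whole interval lay within 0.5.

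In the caruncles, SCNT pools met AI pools on 4 arrays, and each pair of pools gave 1 value. None of the 48 was called by limma, beside 0% of all probes, and 2 had an unadjusted p under 0.05 (4.17%, beside 12.6% of all probes). CD81 was at -0.34 and -0.48 in the pairs with SCNT pools 1 and 2, lower in SCNT on 4 of 4 arrays, and its mean of -0.41 ± 0.09 had an interval of -0.63 to -0.19 and an adjusted p of 0.202. CD59 was at -0.50 and -0.14, with a mean of -0.32 (interval -0.60 to -0.04, adjusted p = 0.342). With 2 values per gene, these SEs and intervals rest largely on the variance that limma borrows from all probes. They measure the spread between the pairs of pools only in part.

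CD9 had the lowest mean, -0.46, from -0.08 and -0.84, while a CD9 probe not chosen by the rule was at -0.02. The pairs of pools thus differed from each other for CD59 and CD9 by more than for CD81. In the T/NK class CD3G was at -0.20, CD4 at -0.15 and CD3D at -0.15, and in the B class CD37 at 0.19, CD79A at 0.10 and CD40 at 0.08. In the myeloid class CD163 was at 0.19, CD101 at 0.08 and CD86 at 0.09. CD52, CD53 and CD48, of several leukocyte types, were at -0.18, -0.16 and 0.18.

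IVF-ET animals were compared with AI animals in each area. In the intercaruncular area 0 of the 48 antigens were called by limma, beside 0.00724% of all probes, and 4 had an unadjusted p under 0.05 (8.33%, beside 9.30% of all probes). In the caruncles 0 were called, beside 0.0217% of all probes, and 1 had an unadjusted p under 0.05 (2.08%, beside 9.11%). For the difference between the areas 0 were called, beside 0.00723% of all probes, and 5 had an unadjusted p under 0.05 (10.4%, beside 7.74%). The median of the 48 was 0.04 in the intercaruncular area and -0.01 in the caruncles, beside -0.00 and -0.01 over all probes.

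CD81 had the smallest unadjusted p of the 48 in each of these 3 comparisons. In the caruncles the IVF-ET animals 1 to 5 were at -0.38, -0.32, -0.37, -0.58 and 0.16 against their AI partners, and in the intercaruncular area the same animals were at 0.17, 0.19, 0.63, 0.59 and 0.46. The value against AI was higher in the intercaruncular area than in the caruncles for each of the 5 animals. No array set the areas against each other, and the AI partners were partly different animals in each area. Within an area the IVF-ET animals shared AI partners, so the 5 values of any antigen there are not independent. The differences were -0.30 ± 0.09 in the caruncles (interval -0.48 to -0.11, adjusted p = 0.402) and 0.41 ± 0.12 in the intercaruncular area (interval 0.16 to 0.66, adjusted p = 0.416). The caruncular minus the intercaruncular difference was -0.70 ± 0.15 (interval -1.01 to -0.39, unadjusted p = 0.000107, adjusted p = 0.368), which did not pass the test over all probes.

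**Figure D4:**
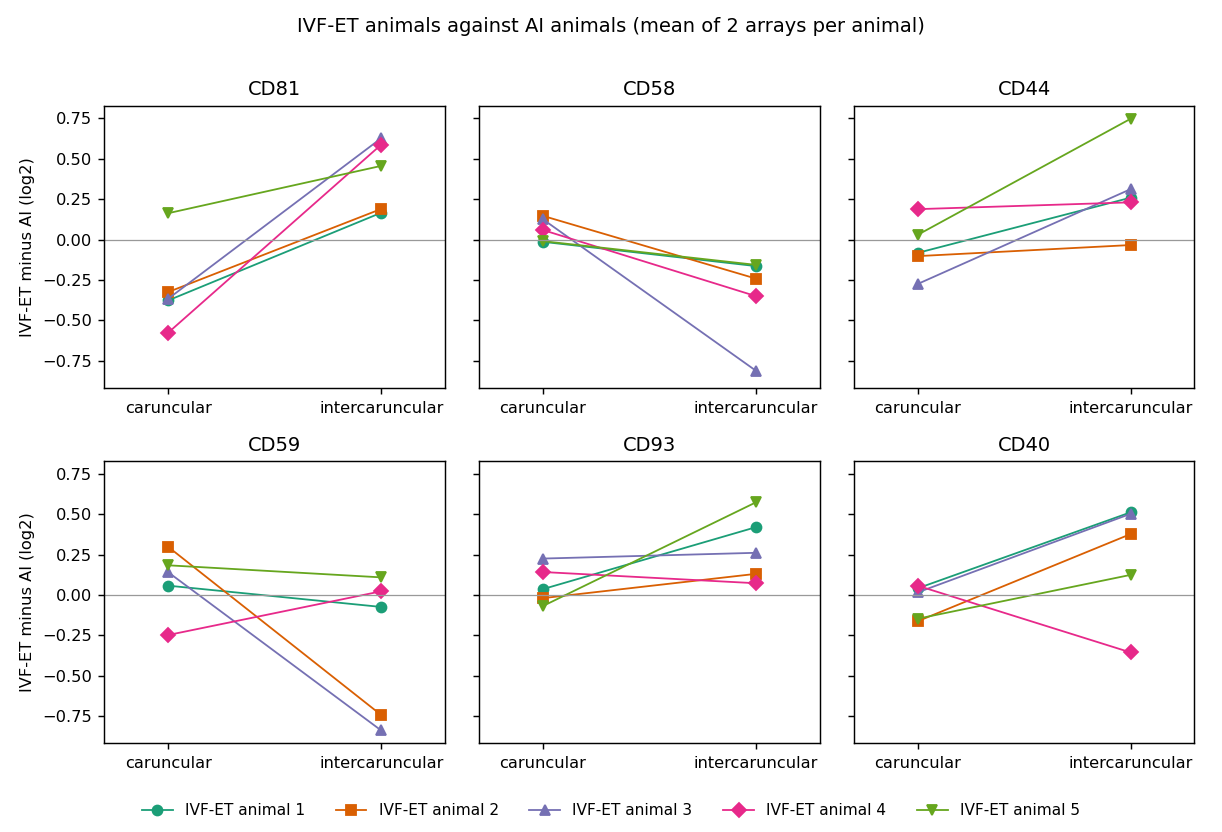
IVF-ET minus AI (log2, mean of 2 arrays) of 5 IVF-ET animals in the caruncular and the intercaruncular area, for the 6 CD antigens with an unadjusted p under 0.05 in at least 1 IVF-ET comparison. A line joins the areas of 1 animal, and the lines of CD81 all run upward, with 4 of 5 animals below 0 in the caruncles and 5 of 5 above 0 in the intercaruncular area.

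CD58, the ligand of CD2, was at -0.16, -0.24, -0.81, -0.35 and -0.16 in IVF-ET animals 1 to 5 in the intercaruncular area and at -0.01, 0.15, 0.13, 0.06 and -0.01 in the caruncles. All 5 animals were below 0 in the intercaruncular area. Its difference was -0.34 ± 0.11 there (interval -0.58 to -0.11, adjusted p = 0.457) and 0.06 in the caruncles, and the areas differed by 0.41 (interval 0.16 to 0.66, adjusted p = 0.499). CD44 was at 0.30 in the intercaruncular area (adjusted p = 0.488), with 4 of 5 animals above 0, and at -0.05 in the caruncles. CD59 was at -0.30 in the intercaruncular area, where animals 2 and 3 were at -0.74 and -0.84 and the others between -0.07 and 0.11, and at 0.09 in the caruncles.

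Among the myeloid antigens CD93 was at 0.29 in the intercaruncular area (interval 0.01 to 0.57, adjusted p = 0.516), with all 5 IVF-ET animals above 0, and at 0.06 in the caruncles. CD5L was at -0.15 and CD86 at -0.07 in the intercaruncular area, and CD5L at -0.08, CD209 at -0.12 and CD101 at -0.07 in the caruncles. Of the B cell antigens CD40 was at 0.23 in the intercaruncular area and -0.04 in the caruncles (difference between the areas -0.27, adjusted p = 0.637). CD72 and CD37 were at -0.08 and -0.06 in the intercaruncular area. In the caruncles CD79A was at -0.13, CD79B at 0.09 and CD72 at -0.09.

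Among the T and NK cell antigens CD3E was at -0.16, -0.13, -0.62, -0.87 and -0.03 in the caruncles of IVF-ET animals 1 to 5, a difference of -0.36 (interval -0.84 to 0.12, adjusted p = 0.644). Its neighbours on the chromosome, CD3D and CD3G, were at -0.01 and 0.02 there. CD244 was at -0.52 (interval -1.39 to 0.35) through IVF-ET animal 3, which was at -2.22 while the others were at -0.31 to 0.05, and a CD244 probe not chosen by the rule was at 0.03. CD28 was at -0.11 in each area, and CD5 and CD4 at -0.22 and -0.16 in the intercaruncular area.

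The antigens of several leukocyte types gave no call between IVF-ET and AI. CD52 was at -0.30 in the intercaruncular area (interval -0.79 to 0.19), where IVF-ET animal 3 was at -1.24 and the others at -0.35 to 0.08, and at 0.02 in the caruncles. CD53 was at 0.09 and 0.02, CD38 at -0.06 and -0.01, and CD69 at -0.03 and -0.05. CD320 was at 0.08 in the intercaruncular area and -0.14 in the caruncles, CD34 at 0.07 and 0.12. For 40 of the 48 the interval lay within 0.5 in the intercaruncular area, and for 46 of 48 in the caruncles. In none of the comparisons among IVF-ET, SCNT and AI was a gene of the marker lists called.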

How the data were processed

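The deposited file holds a log2 ratio of both dyes for each spot. How the authors corrected background and normalized is not given in the sources used here. Of 331 values below -4, 100% equalled log2 of a ratio with 4 decimals. Array medians lay between -0.02 and 0.01, and the data were not normalized further. The 2 spots of a probe were averaged, giving 13824 probes on 44 arrays. The supplied annotation gave 8645 of them 1 symbol. For a gene with several probes (5 of the 48) the probe with the fewest missing values, then the first, was used.

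Each probe with a value on at least 80% of arrays was fitted in R 4.3.3 (limma 3.58.1). The model held a dye term, and generalised least squares took 1 correlation for arrays sharing an animal (0.12 with CJ, 0 and 0.13 in the intercaruncular and caruncular IVF-ET loops, 0.01 over both). Dye-swapped pool pairs were averaged and tested against 0. Benjamini-Hochberg adjustment covered every probe tested, with a threshold of 0.05, and errors are SE. Apart from the pools, arrays were the units of the fit, and shared animals entered only through that correlation. Degrees of freedom therefore follow the number of arrays rather than of animals. Animals are numbered per fit. All 5 IVF-ET and 3 AI animals are in both loops, and the fit over both took the areas of an animal as separate.

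Genes were named by rule: every called gene, the 3 smallest p per class and comparison, and the defining lineage antigens. The genes and lists were chosen with earlier results of these data known, so no p was adjusted over a list. Alternatives changed the correlation, centring, scaling, dye term, weights, variance prior, missing-value filter, spot, probe and the animals used. The test was tested on simulated data. No sequences are shown.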

Additional observations from a re-analysis of the deposited data

Results flagged for a closer look

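Among 240 groups of 4 or 5 animals (48 genes, 5 groups), 18 held an animal set apart by Dixon's test. The gap of that animal to the nearest other, divided by the range of the group, exceeded Dixon's 95% critical value. Chance gives about 1 in 20 such groups. Of the antigens called against CJ, CD52 had AI animal 3 apart at 0.14 and CD59 had CJ animal 4 apart at -0.34. In SCNT animals, CD163 was at -0.74 in animal 1 and CD9 at 0.68 in animal 3. In AI animals, CD244 was at -0.12 in animal 2, CD209 at 0.19 in animal 3 and CD9 at -0.00784 in animal 4. In CJ animals, animal 3 was apart for CD96 (0.28), CD86 (-0.19) and CD36 (-0.34), and animal 4 for CD2 (0.33), CD79B (0.17) and CD69 (-0.16). Of the IVF-ET animals against AI, CD244 was at -2.22 in animal 3, CD86 at -0.15 in animal 1 and CD34 at -0.28 in animal 5 in the caruncles. In the intercaruncular area, CD37 was at -0.42 in animal 4 and CD14 at 0.36 in animal 3.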

How the results depend on the processing

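Among the 48 antigens, the number called in AI against CJ, 7 as reported, was 4 with the correlation set to 0.3 and 11 with array weights. Leaving out 1 animal gave 2 to 9: 3 when AI animal 2 was left out, 9 for AI animal 3, 2 for CJ animal 2 and 4 for CJ animal 5. Without AI animal 3 the share of all probes called also rose, from 15% to 20.4%, so the higher count is no result about the antigens. The number in SCNT against CJ, 10 as reported, was 9 to 10 under the other settings and 8 to 11 with 1 animal left out. CD81 and CD320 in SCNT and AI animals, and CD44, CD52, CD53, CD63 and CD93 in SCNT animals, kept their call under all 12 other settings and without each of 14 animals in turn. The CD164 call in SCNT animals was lost under 4 of the 12 settings, and in AI animals CD44 was lost under 2 and CD52 and CD53 under 1. The causes were not tested. No called difference changed sign. The other 5 comparisons gave 0 calls under every setting run, including the replicate block per animal across the areas (0) and the 4 pool arrays with a dye term (0). No array intensities were used, so what signal over background limits is not known here. Few animals, 2 pairs of pools and a correlation shared by all probes limit the precision, and the direction of the ratio is likely but not stated.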
